A study of Mus musculus with 2 samples.

Results

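Collagens are the main structural proteins of the extracellular matrix. Each is a trimer of chains whose repeated glycine lets them wind into a triple helix, and the chains are secreted, trimmed and cross-linked outside the cell. In a growing long bone, fibrils of type I collagen carry the mineral, type II collagen builds growth plate cartilage, type X collagen marks its hypertrophic zone, and type IV collagen forms the sheets under marrow vessels. The collagen gene family was taken as all genes with the symbol Col, a number, the letter a and a number in the platform annotation, which gave 41 genes with 91 probes, of 19057 named genes and 45281 probes in all. They were described by class, with fibrillar collagens of bone, fibrillar collagens of cartilage, the hypertrophic collagen, fibril-associated collagens, beaded filament collagens and basement membrane collagens, and 8 genes fell outside these classes.

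Messenger RNA was measured in bone marrow from femora of 8-day-old mice on Illumina MouseWG-6 v2.0 bead arrays, with 1 array labelled Dnmt2-/- and 1 array labelled wild type. Dnmt2 (symbol Trdmt1) encodes a methyltransferase of transfer RNA, and the series is about blood formation without it. The sources used here do not give the kind of Dnmt2 allele, the strain or the number of mice behind each RNA. Each genotype had a single array, so that nothing was replicated or tested, the number of arrays limits the precision, and each difference is a log2 ratio, Dnmt2-/- over wild type. Array, animal and genotype cannot be told apart in this design.

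As a check of the labels, the brightest Trdmt1 probe had an intensity of 148.8 on the array labelled Dnmt2-/- and 112.4 on the array labelled wild type, a log2 ratio of 0.62 that goes against the label. A dimmer Trdmt1 probe, also above detection on each array, went the other way with a log2 ratio of -0.27. The rest passed detection only on the array labelled Dnmt2-/-, so their direction is not independent of detection. The brighter of these had 118.2 on the array labelled Dnmt2-/- and 97.1 on the array labelled wild type, a fitted log2 ratio of 0.66. The dimmer had 113.3 on the array labelled Dnmt2-/- and 84.1 on the array labelled wild type, at least 1.53-fold. Both again go against the label. The sources used here do not place the probes relative to the deleted part. The arrays also differed in sex-linked transcripts, and this difference cannot be told apart from genotype either. Xist gave 92.8, below detection, on the array labelled Dnmt2-/- against 822.7 on the array labelled wild type, and Y-linked Eif2s3y gave 466.8 on the array labelled Dnmt2-/- against 89.8, below detection, on the array labelled wild type. All 10 blood cell markers with a probe, among them Mpo, Elane and the globin Hbb-bt, were detected on both arrays.

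A gene was called detected at a detection p-value below 0.01. Of the 41 collagens, 24 were detected on both arrays, 11 on neither, 5 only on the array labelled Dnmt2-/- and 1 only on the array labelled wild type, each by its brightest probe. Over all named genes, 51.1% were detected on both arrays, 5.38% only on the array labelled Dnmt2-/- and 3.49% only on the array labelled wild type. The fitted background was 94.9 intensity units on the array labelled Dnmt2-/- and 90.9 on the array labelled wild type, so a signal near 100 lay close to background. Where only 1 array detected a gene, an undetected value below the lowest detected level of its array was raised to that level and the ratio is written as at least N-fold for this processing. Where the undetected value already lay above that level, the fitted ratio is given. Neither is a bound over other settings of the processing, so the smallest ratio over the 7 settings stands beside each such collagen.

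Collagens were mostly higher on the array labelled Dnmt2-/-. Of the 24 genes detected on both arrays, 21 had a ratio above 0, against 48.3% of all 9746 genes detected on both arrays. Of the same 24 genes, 12 were at least 1.5-fold higher, against 6.61% of all such genes, and 4 were at least 2-fold higher, against 1.08%. None was at least 1.5-fold lower, against 5.16%. In such bulk RNA, more cells of a type and more RNA per cell cannot be told apart. Several markers of cartilage, bone and muscle were also higher on the array labelled Dnmt2-/-, as given with the marker lists. The median log2 ratio was 0.53 for the collagens (1.45-fold) and -0.02 for all genes. Among the 5 collagens detected on the array labelled Dnmt2-/- only, 2 (Col9a1 and Col26a1) had a value of at least 1.5-fold by this rule, against 19.6% of the 1026 genes with that pattern. These 5 passed detection only through the array labelled Dnmt2-/-. Their direction is not independent of that filter, and the count adds no support to the higher values above. By probe, 34 of the 91 collagen probes were detected on both arrays, of which 28 had a ratio above 0, 15 were at least 1.5-fold higher and 0 were at least 1.5-fold lower. Over all 17096 probes detected on both arrays, 47.8% had a ratio above 0, 5.94% were at least 1.5-fold higher and 5.26% at least 1.5-fold lower.

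**Figure D1:**
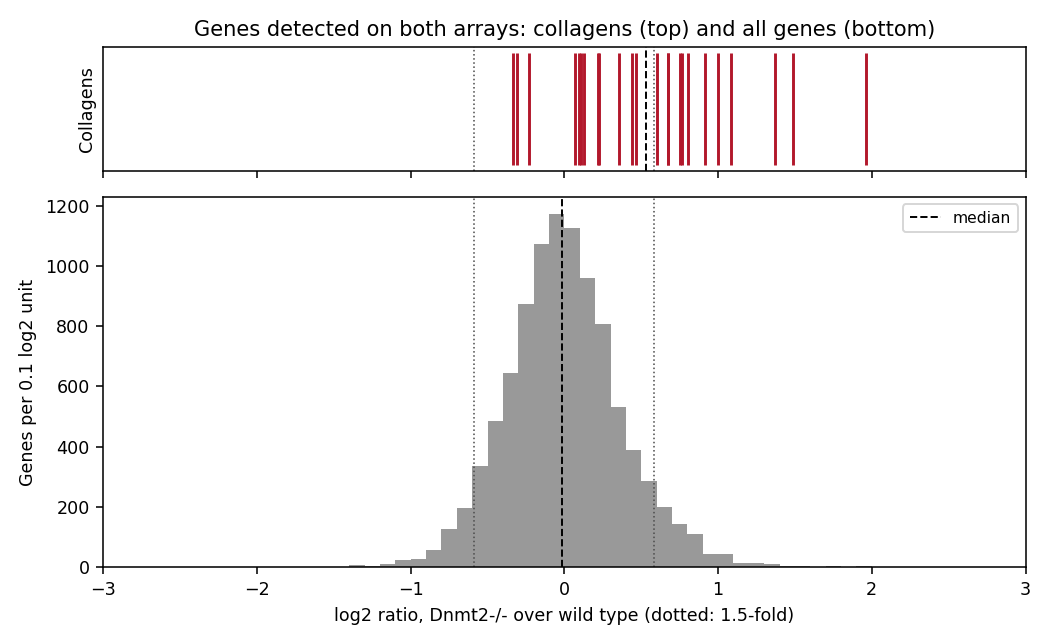
The horizontal axis is the log2 ratio, Dnmt2-/- over wild type, for genes detected on both arrays. The top strip has a line for each of the 24 collagens, and the bottom panel counts all 9746 genes in bins of 0.1; dashed lines mark the medians (0.53 and -0.02) and dotted lines 1.5-fold.

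The fibrillar collagens of bone, types I, III, V and XXIV, were all detected on both arrays, and all 7 had a ratio above 0. Their median log2 ratio was 0.67, and 5 of the 7 were at least 1.5-fold higher. Col1a1, which encodes the alpha 1 chain of type I collagen, had an intensity of 4423 on the array labelled Dnmt2-/- and 2905 on the array labelled wild type, a log2 ratio of 0.60 (1.52-fold). Col1a2, which encodes its alpha 2 chain, had 2832 on the array labelled Dnmt2-/- and 1305 on the array labelled wild type, a log2 ratio of 1.09 (2.12-fold). Both chains belong to the same trimer and both were higher on the array labelled Dnmt2-/-, Col1a2 by 0.49 log2 units more than Col1a1 (0.42 to 0.54 over 7 settings of the processing). Col1a1 lay just past the 1.5-fold limit and fell short of it with median scaling (1.46-fold) and in the authors' processed values (1.45-fold).

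Type V collagen sits inside type I fibrils and limits their width, and its 3 chains had unequal ratios. Col5a1 had an intensity of 1944 on the array labelled Dnmt2-/- and 1327 on the array labelled wild type, a log2 ratio of 0.46 (1.38-fold), the nearest value under the 1.5-fold limit. Col5a2 had 243.0 on the array labelled Dnmt2-/- and 125.5 on the array labelled wild type, a log2 ratio of 1.37 (2.59-fold). A second Col5a2 probe detected on both arrays gave 0.59, and the other 3 probes of the gene were detected on neither array. Col5a3 was close to background, with 112.3 on the array labelled Dnmt2-/- and 100.8 on the array labelled wild type, a log2 ratio of 0.22.

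Col3a1, which encodes the collagen of loose connective tissue and vessel walls, had an intensity of 183.7 on the array labelled Dnmt2-/- and 127.5 on the array labelled wild type, a log2 ratio of 0.67 (1.60-fold). Its second probe passed detection only on the array labelled Dnmt2-/-, with at least 1.46-fold. Col24a1 encodes a fibrillar collagen known from developing bone. It had 221.7 on the array labelled Dnmt2-/- and 142.0 on the array labelled wild type, a log2 ratio of 0.76 (1.69-fold), and its other probes detected on both arrays gave 0.50 and 0.06. The Col24a1 probes thus had the same sign and unequal size, and with the mean over its probes it fell under 1.5-fold.

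**Figure D2:**
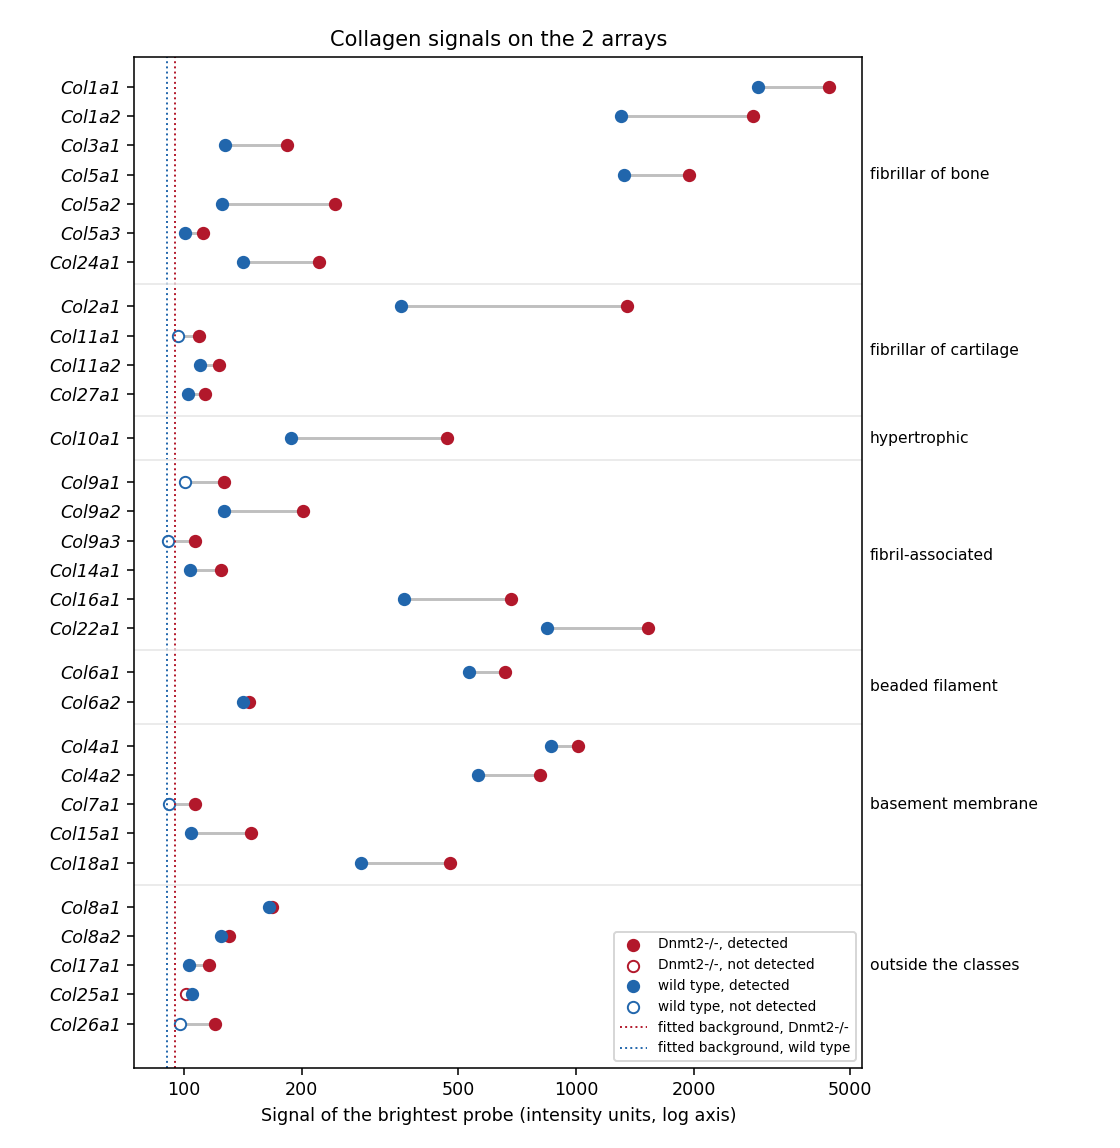
The horizontal axis is the signal of the brightest probe of each collagen in intensity units, before background correction and on a log axis, for the array labelled Dnmt2-/- (red) and the array labelled wild type (blue), and open points were not detected. Genes run down the page by class, dotted lines are the fitted backgrounds of 94.9 and 90.9, and signals of different probes are not comparable with each other; Col2a1, Col10a1 and Col1a2 are among the genes with widely separated points, and the points of Col8a1 and Col6a2 nearly coincide.

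Among the fibrillar collagens of cartilage, the ratio of Col2a1 was apart from the others. Col2a1 encodes the single chain of type II collagen, the main collagen of cartilage. Its brightest probe had an intensity of 1348 on the array labelled Dnmt2-/- and 357.8 on the array labelled wild type, a log2 ratio of 1.96 (3.90-fold). The other 2 probes had 934.1 and 687.6 on the array labelled Dnmt2-/- against 221.2 and 184.6 on the array labelled wild type, with ratios of 2.29 and 2.19. Every Col2a1 probe was therefore several fold brighter on the array labelled Dnmt2-/-, and the 7 settings put the brightest between 3.30-fold and 4.28-fold.

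The minor fibrillar collagens of cartilage were near background. Type XI collagen nucleates type II fibrils. Col11a2 had an intensity of 123.2 on the array labelled Dnmt2-/- and 109.8 on the array labelled wild type, a log2 ratio of 0.11. Col11a1 had 109.3 on the array labelled Dnmt2-/- and 97.0, below detection, on the array labelled wild type, a fitted ratio of 1.26-fold (lowest setting 1.06-fold). Col27a1, which encodes a thin-fibril collagen of cartilage, had 113.1 on the array labelled Dnmt2-/- and 102.8 on the array labelled wild type, a log2 ratio of 0.13. The class median of 0.13 is thus that of Col27a1, and Col2a1 lay far above it.

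Col10a1 encodes type X collagen, which hypertrophic chondrocytes make where cartilage is about to be replaced by bone, and it was the sole member of its class. Its probe had an intensity of 468.3 on the array labelled Dnmt2-/- and 187.5 on the array labelled wild type, a log2 ratio of 1.49 (2.81-fold). The 7 settings put it between 2.12-fold and 3.30-fold. Col2a1 and Col10a1 were the 2 collagens at least 2-fold higher in each of these settings.

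Promoter sequences from RefSeq (GRCm38.p6) were matched by symbol for 33 of the 41 collagens. Among the 4 collagens at least 2-fold higher, Col10a1 and Col1a2 had an entry, and the 250 bases before their starts are shown because both genes had higher signals on the array labelled Dnmt2-/- and encode collagens of the hypertrophic zone and of bone. The Col10a1 sequence lies at chr10:34389731-34389980 and the Col1a2 sequence at chr6:4505368-4505617, both on the plus strand. Capitals mark matches to 3 promoter motifs searched on both strands, TATAAA (the TATA box), CCAAT and GGGCGG (the GC box).
Col10a1: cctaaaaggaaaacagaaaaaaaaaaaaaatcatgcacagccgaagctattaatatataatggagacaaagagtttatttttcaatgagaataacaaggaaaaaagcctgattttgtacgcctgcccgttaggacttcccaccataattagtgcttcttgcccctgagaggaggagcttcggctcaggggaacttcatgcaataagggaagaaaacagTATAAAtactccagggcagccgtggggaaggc
Col1a2: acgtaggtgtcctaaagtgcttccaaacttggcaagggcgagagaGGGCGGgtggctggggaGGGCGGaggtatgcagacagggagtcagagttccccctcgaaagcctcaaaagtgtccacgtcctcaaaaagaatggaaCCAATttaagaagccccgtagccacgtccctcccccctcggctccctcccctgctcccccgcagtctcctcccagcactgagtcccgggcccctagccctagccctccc
The Col10a1 sequence had TATAAA from 32 to 27 bases before the start and no match to the other motifs. The Col1a2 sequence had CCAAT from 109 to 105 bases before the start and GGGCGG at 205 to 200 and at 188 to 183 bases, and no TATAAA. Over all 36 collagen windows of this length, 5 had TATAAA (13.9%), 13 had CCAAT (36.1%) and 22 had GGGCGG (61.1%). Over all 32851 windows in the table the shares were 12.4%, 33.8% and 32.7%. The 2 promoters thus shared none of the 3 motifs, and the matches are descriptions of sequence only.

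Fibril-associated collagens coat fibrils without forming their own, and those detected on both arrays were all higher on the array labelled Dnmt2-/-. The 4 such genes had a median log2 ratio of 0.79, and 3 of them were at least 1.5-fold higher. Col9a2, a chain of the type IX collagen that lines type II fibrils, had an intensity of 201.3 on the array labelled Dnmt2-/- and 127.0 on the array labelled wild type, a log2 ratio of 0.92 (1.89-fold). Its partner chains passed detection only on the array labelled Dnmt2-/-. Col9a1 had 126.6 on the array labelled Dnmt2-/- and 100.9 on the array labelled wild type with a fitted ratio of 1.61-fold (lowest setting 1.16-fold) and at least 1.54-fold in a second probe. Col9a3 had 107.0 on the array labelled Dnmt2-/- and 91.3 on the array labelled wild type and was at least 1.27-fold higher (lowest setting 1.11-fold). Col9a2 had the same direction as Col2a1, whose fibrils type IX collagen decorates. Col9a1 and Col9a3 passed detection only through the array where they were higher, so their direction is not independent of that filter. Their probes detected on neither array gave -0.12 and 0.04 for Col9a1 and -0.11 and -0.08 for Col9a3.

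Col16a1, whose product is made in cartilage and in many connective tissues, had an intensity of 683.8 on the array labelled Dnmt2-/- and 364.3 on the array labelled wild type, a log2 ratio of 0.81 (1.75-fold). Col22a1, whose product lies at tissue junctions such as that of muscle and tendon, had 1524 on the array labelled Dnmt2-/- and 842.8 on the array labelled wild type, a log2 ratio of 0.77 (1.70-fold). Both ratios stayed above 1.5-fold in each of the 7 settings. Col14a1, which encodes a fibril-associated collagen of tendon and skin, was nearer background, with 124.5 on the array labelled Dnmt2-/- and 104.0 on the array labelled wild type, a log2 ratio of 0.44 (1.36-fold). Col19a1 was detected on neither array, and Col12a1, Col20a1 and Col21a1, also of this class, had no named probe.

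The beaded filament collagen, type VI, did not share the higher values in the 2 chains detected on both arrays. Col6a1 had an intensity of 659.5 on the array labelled Dnmt2-/- and 534.0 on the array labelled wild type, a log2 ratio of 0.10 (1.07-fold), and its second probe gave 0.09. Col6a2 had 146.4 on the array labelled Dnmt2-/- and 141.8 on the array labelled wild type. After normalization its log2 ratio was -0.31 (-0.14 without background correction), and its second probe gave 0.11. The chains Col6a4, Col6a5 and Col6a6 were detected on neither array, and Col6a3 had no named probe. The class thus rests on 2 genes and has no median.

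Basement membrane collagens were divided. Col4a1 and Col4a2 encode the chains of the type IV network found under most endothelia. Col4a1 had an intensity of 1014 on the array labelled Dnmt2-/- and 864.0 on the array labelled wild type, a log2 ratio of 0.07 (1.05-fold). Col4a2 had 811.0 on the array labelled Dnmt2-/- and 562.4 on the array labelled wild type, a log2 ratio of 0.36 (1.28-fold). In the RefSeq table the 2 genes lie on opposite strands of chromosome 8 with starts 21 bases apart, and both had ratios below 1.5-fold in each of the 7 settings. The other type IV chains, Col4a3, Col4a4, Col4a5 and Col4a6, were detected on neither array.

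The multiplexins, which bind basement membranes to the matrix around them, had larger ratios than type IV by their brightest probes. Col15a1 had an intensity of 148.2 on the array labelled Dnmt2-/- and 104.2 on the array labelled wild type, a log2 ratio of 1.00. Its signal on the array labelled wild type was close to background, and the 7 settings put the ratio anywhere from 1.29-fold to 3.06-fold. Col18a1, the precursor of endostatin, had 476.3 on the array labelled Dnmt2-/- and 282.4 on the array labelled wild type, a log2 ratio of 0.67 (1.59-fold), but a dimmer probe with 106.2 on the array labelled Dnmt2-/- and 103.4 on the array labelled wild type gave -0.20. With the mean over its probes Col18a1 was at 0.24, below Col4a2 and under 1.5-fold. Col7a1, which encodes the anchoring fibril collagen, gave 107.1 on the array labelled Dnmt2-/- and 92.0, below detection, on the array labelled wild type, at least 1.28-fold higher (a log2 ratio of 0.14 in the lowest setting). The class median over its 4 genes detected on both arrays was 0.51, with 2 of them at least 1.5-fold higher.

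The collagens outside the classes had no gene detected on both arrays past 1.5-fold. Type VIII collagen is a short-chain collagen of vessel walls and cornea. Col8a1 had an intensity of 168.2 on the array labelled Dnmt2-/- and 164.5 on the array labelled wild type, a log2 ratio of -0.33, with -0.49 in its second probe. Col8a2 had 130.6 on the array labelled Dnmt2-/- and 124.5 on the array labelled wild type, a log2 ratio of -0.23. With Col6a2, these were the 3 collagens detected on both arrays with a ratio below 0. Each was below 0 in all 7 settings, although within 1.5-fold. Before processing, the brightest probes of all 3 had slightly higher signals on the array labelled Dnmt2-/-. The sign thus arose in the processing, and the 7 settings share normalization between the arrays. The second Col8a1 probe was already lower, with 156.9 on the array labelled Dnmt2-/- and 161.5 on the array labelled wild type. With median scaling the ratios of the 3 genes were close to 0, at -0.07 for Col8a1, -0.05 for Col6a2 and -0.005 for Col8a2.

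The remaining members were near background. Col17a1, which encodes a transmembrane collagen of hemidesmosomes, had an intensity of 115.9 on the array labelled Dnmt2-/- and 102.9 on the array labelled wild type, a log2 ratio of 0.23. Col26a1 had a fitted ratio of 1.58-fold by its brightest probe (lowest setting 1.14-fold), with 120.0 on the array labelled Dnmt2-/- and 98.1, below detection, on the array labelled wild type. Another Col26a1 probe was detected on both arrays and gave -0.07, so its probes did not share a direction. Col25a1, a transmembrane collagen known from neurons, was the one collagen whose brightest probe passed detection only on the array labelled wild type. It had 101.5 on the array labelled Dnmt2-/- and 104.7 on the array labelled wild type, a fitted log2 ratio of -0.51 (-0.14 in the setting nearest 0), while another of its probes passed detection only on the array labelled Dnmt2-/- and was at least 1.21-fold higher. Col13a1, Col23a1 and Col28a1 were detected on neither array.

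**Figure D3:**
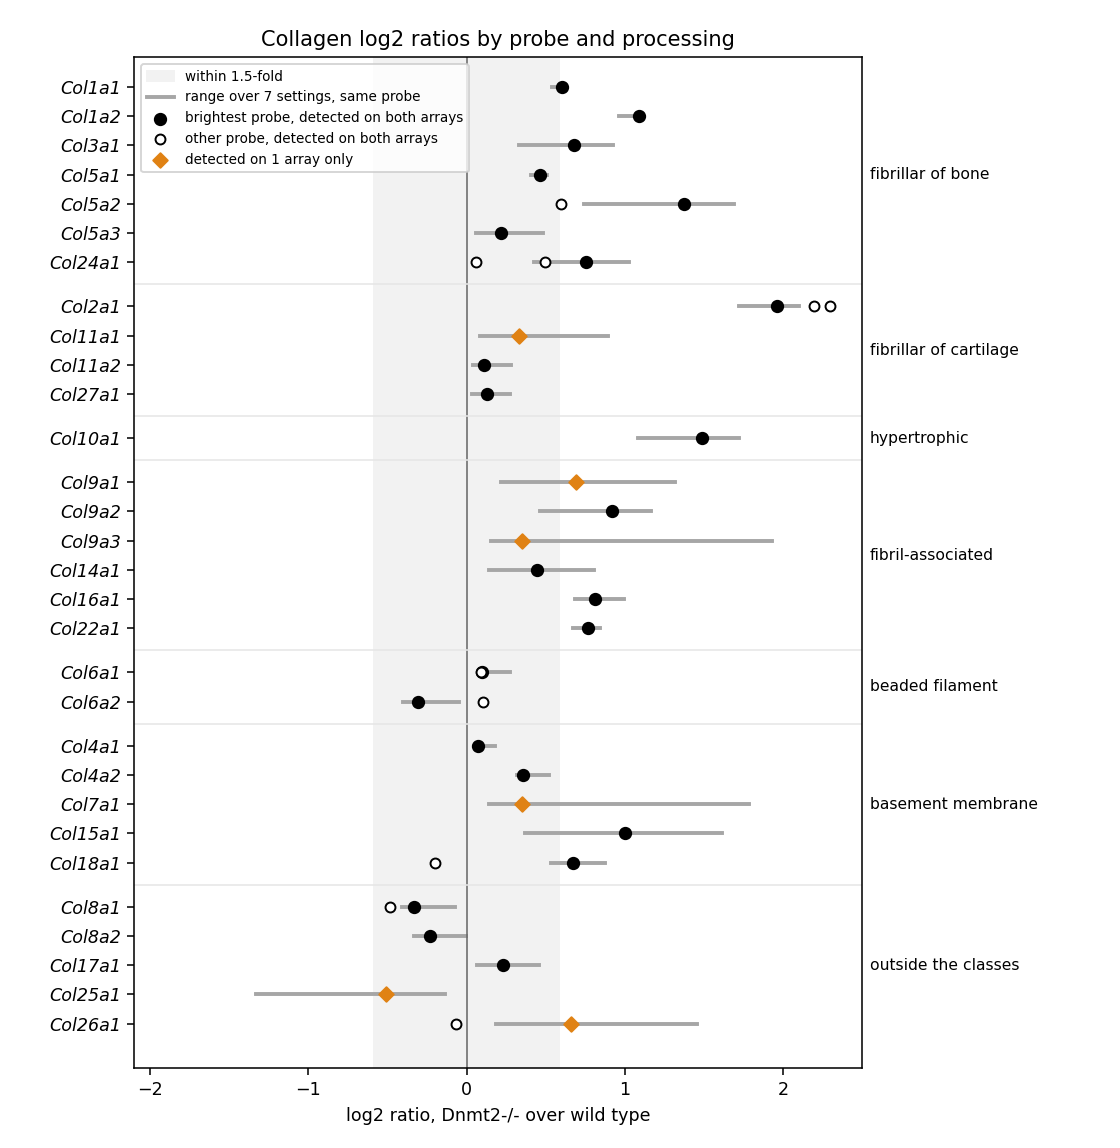
The horizontal axis is the log2 ratio, Dnmt2-/- over wild type, with the 30 collagens detected on at least 1 array down the page by class. Black points are the brightest probe, open points other probes detected on both arrays, diamonds genes detected on 1 array only, and grey bars the range of the measured ratio of the brightest probe over 7 settings of the processing; the bars of Col2a1 and Col10a1 lie wholly above 1, and no black point lies below the shaded band of 1.5-fold.

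Without replicates, the error of these ratios as a difference between genotypes could not be measured. The spread between probes of the same gene covers measurement on the same pair of arrays. It holds no variation between animals or between arrays. Within a gene, the SD between probes of the log2 ratio was 0.29 (3375 genes), and it was 0.35 in the 7 collagens with more than 1 probe detected on both arrays. Col1a1 and Col5a1 differed in ratio by less than these SDs, and Col2a1, Col10a1, Col5a2 and Col1a2 lay further than this from Col4a1, Col6a1 and Col11a2. Of the 12 collagens at least 1.5-fold higher, 6 were so in all 7 settings, namely Col2a1, Col10a1, Col5a2, Col1a2, Col16a1 and Col22a1. The other 6 fell short in 2 or 3 settings. Col1a1 did so with median scaling and in the authors' processed values, and Col3a1, Col24a1, Col9a2, Col15a1 and Col18a1 did so in the authors' values and without background correction. Their ratios ran from 1.33-fold (Col3a1) to 1.48-fold (Col9a2) in the authors' values and from 1.26-fold (Col3a1) to 1.44-fold (Col18a1) without background correction. Col3a1, Col24a1 and Col15a1 also fell short with an offset of 50. All 21 ratios above 0 were above 0 in each of the 7 settings.

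Genes that make and assemble collagen were examined next. Each list stands against the shares over all genes detected on both arrays, which were 48.3% above 0, 6.61% at least 1.5-fold higher and 5.16% at least 1.5-fold lower. Of 33 genes for biosynthesis and processing with a probe, 24 were detected on both arrays, with a median log2 ratio of 0.37. Of these 24, 23 had a ratio above 0, 6 were at least 1.5-fold higher and 0 were at least 1.5-fold lower. Pcolce, which enhances removal of the C-terminal propeptide, had an intensity of 908.2 on the array labelled Dnmt2-/- and 425.7 on the array labelled wild type (2.03-fold). Lox, the oxidase that starts cross-linking, had 1517 on the array labelled Dnmt2-/- and 710.6 on the array labelled wild type (2.01-fold). Pcolce2 (1.89-fold), P3h4, a partner of lysyl hydroxylase (1.72-fold), and Bmp1, the propeptide-cleaving protease (1.66-fold, with log2 ratios from -0.19 to 0.91 over its probes), were also higher on the array labelled Dnmt2-/-. Sec23a, a coat protein needed to export procollagen, gave 127.5 on the array labelled Dnmt2-/- and 96.1, below detection, on the array labelled wild type, a fitted ratio of 2.01-fold (lowest setting 1.23-fold).

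Members of the same list that act in the endoplasmic reticulum were unequal. Serpinh1, the collagen chaperone HSP47, had 6691 on the array labelled Dnmt2-/- and 5298 on the array labelled wild type, a log2 ratio of 0.35, and its second probe gave -0.02. P4hb, the protein disulfide isomerase that is also a subunit of prolyl 4-hydroxylase, was at 0.09, and Ppib, cyclophilin B, at 0.02, while P3h1, a prolyl 3-hydroxylase, was at 0.69, P4ha1, the catalytic subunit of prolyl 4-hydroxylase, at 0.48 and Crtap, a partner of P3h1, at 0.38. Several proteins that bind collagen fibrils had larger ratios. Of 15 matrix proteins of the list detected on both arrays, 10 were at least 1.5-fold higher and 0 were at least 1.5-fold lower, with a median of 0.73. Lumican, Lum, which binds type I fibrils, had 1920 on the array labelled Dnmt2-/- and 752.7 on the array labelled wild type (2.46-fold), and Sparc, a collagen chaperone of bone matrix, had 11450 on the array labelled Dnmt2-/- and 6688 on the array labelled wild type (1.75-fold). The cartilage proteins Comp (3.43-fold) and Matn1 (2.80-fold), fibronectin Fn1 (2.32-fold) and Thbs2 (2.15-fold) were the others among the 6 largest. Other probes of Comp and Fn1 gave smaller log2 ratios, 0.69 for Comp and 0.70 for Fn1.

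Collagen receptors went both ways after normalization. Of 7 detected on both arrays, 3 were at least 1.5-fold higher and 0 were at least 1.5-fold lower, with a median of -0.21 (0.02 with median scaling). Oscar, an osteoclast receptor for collagen, had 288.5 on the array labelled Dnmt2-/- and 156.7 on the array labelled wild type (2.05-fold). The integrin genes Itgb1 (1.84-fold, with a log2 ratio of 0.21 in its other probe) and Itga11 (1.73-fold) followed, while the platelet receptor gene Gp6 was at -0.21 and Lair1 at -0.23. Before normalization, Gp6 (300.7 against 284.1) and Lair1 (115.2 against 111.4) had slightly higher signals on the array labelled Dnmt2-/-. Mrc2, the receptor that takes up cleaved collagen, passed detection only on the array labelled Dnmt2-/- by its brightest probe, with at least 2.17-fold (lowest setting 1.28-fold), and its other probe detected on both arrays gave 0.05. Ddr2 was detected on neither array.

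Several enzymes that degrade collagen were also higher on the array labelled Dnmt2-/-. Of 14 degrading enzymes and inhibitors detected on both arrays, 7 were at least 1.5-fold higher and 0 were at least 1.5-fold lower, with a median of 0.62. The collagenase Mmp13 had 13015 on the array labelled Dnmt2-/- and 6524 on the array labelled wild type (2.10-fold), and the osteoclast protease Ctsk had 13500 on the array labelled Dnmt2-/- and 6683 on the array labelled wild type (2.07-fold). Mmp2 (1.75-fold), Mmp9 (1.74-fold), Mmp16 (1.74-fold) and the membrane-bound collagenase Mmp14 (1.68-fold) were also higher. Of 10 transcription factors known to act on collagen genes, 3 were at least 1.5-fold higher, with a median of 0.11. They were Sox9, the regulator of Col2a1 (175.4 on the array labelled Dnmt2-/- and 114.2 on the array labelled wild type, a log2 ratio of 1.00), Atf4 (1.61-fold) and the osteoblast factor Sp7 (1.59-fold). Of the 10 factors, 6 had a ratio above 0 and 4 below 0. The 4 below 0 included Sox5 at -0.14 and Sox6 at -0.36. Runx2 had no named probe.

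**Figure D4:**
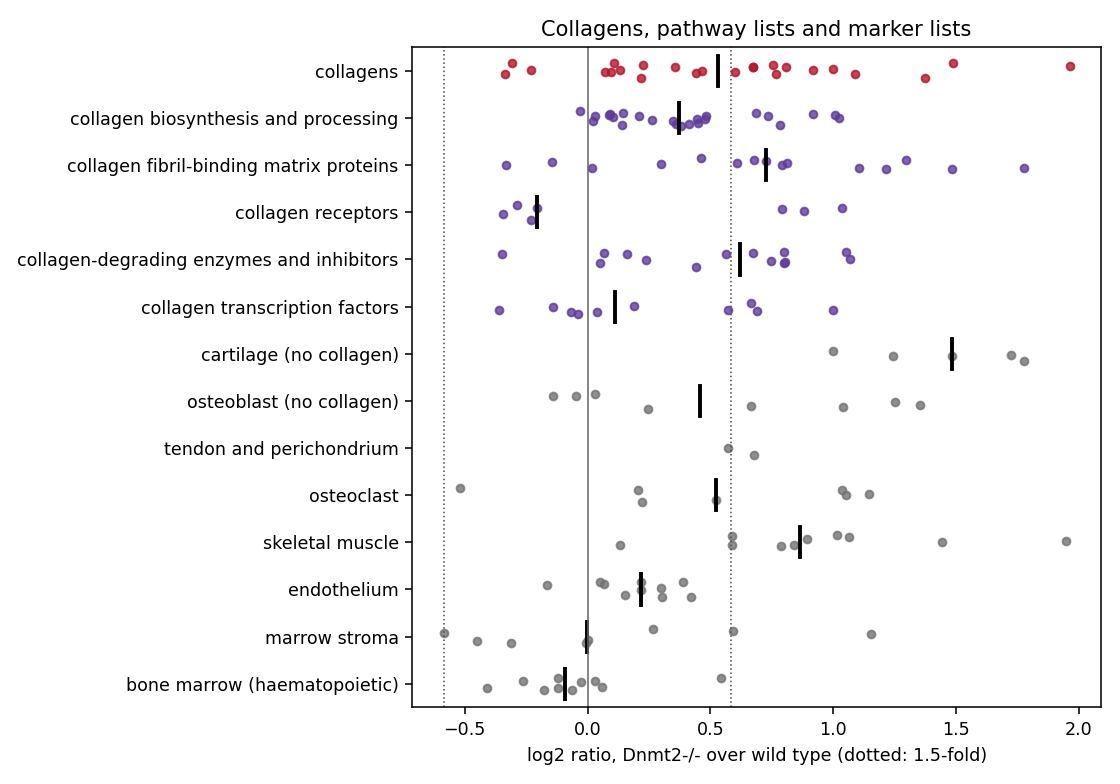
The horizontal axis is the log2 ratio, Dnmt2-/- over wild type, for genes detected on both arrays, with a point for each gene (scattered vertically for visibility), a bar at the median of rows with at least 3 genes, and dotted lines at 1.5-fold. Collagens are in red, pathway lists in purple and cell type marker lists in grey. Among the marker lists, the medians of cartilage, 1.48 (0.66 without background correction), and skeletal muscle, 0.87 (0.80 without it), lie above the collagen median of 0.53 (0.35 without it). The haematopoietic median is -0.09.

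Several markers of tissues next to the marrow differed in the same direction as the collagens. Of 5 cartilage markers other than collagens detected on both arrays, 5 were at least 1.5-fold higher by their brightest probe, and their summed normalized level was 1331 on the array labelled Dnmt2-/- and 509.6 on the array labelled wild type over all 12 genes with a probe, of which Cnmd, Cytl1, Epyc, Matn3 and Ucma were detected on neither array. Probes of Acan disagreed, with a log2 ratio of 1.24 in the brightest and -0.17 in the other. Of 8 osteoblast markers, 4 were at least 1.5-fold higher, with a median of 0.46. The sums were 26353 on the array labelled Dnmt2-/- and 25022 on the array labelled wild type, and Dmp1 was detected on neither array. The osteocalcin genes Bglap and Bglap2 were at -0.05 and -0.14, while Ibsp was 2.55-fold, Panx3 2.38-fold and Phex 2.06-fold higher. Of 10 skeletal muscle markers, 9 were at least 1.5-fold higher, with a median of 0.87. The sums were 14424 on the array labelled Dnmt2-/- and 7621 on the array labelled wild type, and Casq1 was detected on neither array. Of 7 osteoclast markers, 3 were at least 1.5-fold higher, with a median of 0.52. The sums were 14726 on the array labelled Dnmt2-/- and 7332 on the array labelled wild type, and Atp6v0d2 and Calcr were detected on neither array. Ctsk, with signals of 13500 and 6683, made up most of both sums. Itgb3 was the 1 osteoclast marker with a ratio below 0, at -0.52. The part of these tissues in the collagen ratios was not tested.

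Markers of endothelium, stroma, tendon and blood were examined as well. Of 10 endothelial markers, 0 were at least 1.5-fold higher and 0 were at least 1.5-fold lower, with a median of 0.22 and sums of 4368 on the array labelled Dnmt2-/- and 4049 on the array labelled wild type. Of 8 marrow stroma markers, 2 were higher and 1 was lower by that much, with a median of -0.002 and sums of 13887 on the array labelled Dnmt2-/- and 14007 on the array labelled wild type, and Kitl and Lepr were detected on neither array. Of 7 tendon and perichondrium markers with a probe, Scx and Fmod were detected on both arrays, with log2 ratios of 0.57 and 0.68, and Tnmd and Thbs4 were detected on neither array. Mkx, Dpt and Kera passed detection only on the array labelled Dnmt2-/-, and Kera had a fitted log2 ratio of -0.005. The sums, which include undetected genes, were 246.8 on the array labelled Dnmt2-/- and 184.4 on the array labelled wild type. The 10 haematopoietic markers had a median of -0.09, with sums of 60242 on the array labelled Dnmt2-/- and 63766 on the array labelled wild type. Some genes stood in more than 1 list, among them Comp, Matn1, Sox9, Ctsk and Oscar.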

How the data were processed

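Per the labels' protocols, total RNA was isolated with Trizol and biotin-labelled cRNA made from it was put on bead arrays. The deposited table gave a linear signal intensity per probe, with no background subtracted, and a detection p-value. The values that the authors normalized were also linear intensities, not centred, with medians of 101.1 on the array labelled Dnmt2-/- and 101.8 on the array labelled wild type. The sources used here do not describe their method, and 1071 probes were blank. They served as an alternative.

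Groups came from the genotype labels. Of 45281 probes, 34885 had 1 gene symbol in the platform annotation, 18 had several and named no gene, and 10378 were unnamed here. Entrez identifiers of 34807 matched the mouse reference (GRCm38.p6), and 0 symbols changed. Of the arrays' probes, 19580 (43.2%) were detected on the array labelled Dnmt2-/- and 18744 (41.4%) on the array labelled wild type.

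The normexp background correction of limma 3.58.1 (R 4.3.3) was fitted from the detection p-values. An offset of 16 was added, followed by log2 and quantile normalization. The offset shrinks folds, most for dim genes. The brightest probe stood for a gene. For a gene detected on 1 array, the undetected value was raised to the lowest normalized level that any detected probe had on its array, unless it was already above it. Medians needed at least 3 genes. The steps were tested on simulated arrays.

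The collagens, the lists and the rules were chosen with earlier results of these data known. Each collagen detected on at least 1 array is named, as are up to 6 list members in each direction past 1.5-fold and a few fixed regulators and enzymes. P4hb, Ppib, P3h1, P4ha1, Crtap, Gp6, Lair1, Sox5, Sox6 and the named markers were chosen after their values were seen. The 7 settings of the processing named in the text are the one described here, no background correction, offsets of 50 and 0, median scaling, cyclic loess and the authors' processed values.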

Additional observations from a re-analysis of the deposited data

How the results depend on the processing

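No paired analysis was possible because each genotype had 1 array, and for the same reason no replicate could be left out. The count of collagens at least 1.5-fold higher was 12, and was from 6 to 14 over 9 alternatives. It was 7 without background correction, when 1.91% of all genes passed, and 6 in the authors' processed values, when 2.31% passed. These 7 and 6 were all among the 12. It was 12 with median scaling, which moved the median of all genes to 0.14 and let 13.8% of them pass. The count at least 1.5-fold lower was 0 in each alternative. The collagen median was from 0.30 to 0.66. Over the same alternatives the class median was from 0.44 to 0.93 for fibrillar collagens of bone, 0.57 to 0.92 for fibril-associated and 0.30 to 0.69 for basement membrane collagens. The median of the collagen-binding matrix proteins was 0.41 without background correction, and that of the receptors was 0.24 without the detection filter, where 11 genes entered in place of 7. The cartilage marker median, 1.48, was 0.66 without background correction, 0.78 in the authors' values, 0.95 with an offset of 50, 0.82 without the detection filter and 1.84 with no offset. The skeletal muscle marker median, 0.87, was from 0.76 to 0.96 over the alternatives. The Col26a1 log2 ratio was -0.0701 with the mean over the probes of a gene, which uses its probe detected on both arrays. The offset of 0 was chosen after seeing the data. A shift was judged against the SD of 0.29 between probes of a gene. Signals near background limit the precision for Col5a3, Col11a2, Col27a1, Col14a1 and Col17a1.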
